A study of Mus musculus with 6 samples.

Results

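The synaptonemal complex genes described here are 7 genes that encode the structural proteins of the synaptonemal complex, chosen by name: *Sycp1*, *Sycp2*, *Sycp3*, *Syce1*, *Syce2*, *Syce3* and *Tex12*. They were chosen with earlier results of these data known. The study itself reports *Sycp1*, *Sycp2*, *Sycp3*, *Syce1* and *Syce2* as lower by RT-qPCR in knockout testes at postnatal day 12. All 7 were found among the 54232 genes of the count table, and all 7 were among the 20327 genes with enough counts to be tested. Bulk RNA-seq was carried out on whole testes of mice at postnatal day 12 (P12), an age at which the first wave of spermatogenesis has reached early meiotic prophase. There were 3 control libraries, labelled as Dis3l2 WT, and 3 libraries labelled as Dis3l2 KO, all on the strain background given as B6D2F1. In the study, conditional knockout males carry *Stra8-Cre*, 1 floxed and 1 deleted allele of *Dis3l2*, which encodes an RNA-exosome independent ribonuclease, and littermates serve as controls. The Cre acts from part of the spermatogonia to pre-leptotene spermatocytes, so somatic cells of these testes keep the floxed allele. The study calls the libraries of a group biological replicates, while the labels do not say whether they came from separate animals. The edgeR p-values below set the difference between the groups against the spread between these libraries.

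The labels were first checked against the gene they name. *Dis3l2* was present at 25.8, 23.5 and 23.0 CPM (read counts relative to library size, scaled by the TMM method) in the control libraries and at 31.6, 25.4 and 27.5 CPM in the others. The log2 fold change was 0.22 (95% interval -0.01 to 0.46), and edgeR's quasi-likelihood test gave an adjusted p of 0.136. Counts over the whole gene can include reads from outside the deleted part and from somatic cells, and the part of either was not tested. The series' design text names *Dis3*, a related ribonuclease, in place of *Dis3l2*. *Dis3* was lower, at 63.8 ± 4.55 CPM against 139 ± 7.93 CPM (SD, n = 3 each, log2 fold change -1.13, edgeR adjusted p = 2.7e-07). Falls were common in these libraries, where 16.5% of all tested genes were called lower and 13 germ cell markers had a median log2 fold change of -0.83. The study reports a reduction of *Dis3l2* mRNA by RT-qPCR and of its protein by immunoblot in conditional knockout testes at P12. By in situ hybridization it reports no *Dis3l2* in germ cells before meiosis or in spermatocytes. The counts here showed no reduction of *Dis3l2* mRNA, unlike that RT-qPCR. The study's assays are not analysed here. These counts alone do not tell which gene was deleted, and the libraries are therefore called KO-labelled throughout. The libraries held 33325483 to 44956193 counts. Between 31560 and 34399 genes had a count in a control library and between 27705 and 28414 in a KO-labelled library.

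The synaptonemal complex is a zipper-like protein structure that holds homologous chromosomes together along their length during meiotic prophase, while recombination is completed. SYCP2 and SYCP3 build the lateral elements along each chromosome axis. SYCP1 forms the transverse filaments that bridge the axes, and SYCE1, SYCE2, SYCE3 and TEX12 make up the central element where filaments from both sides meet. In the testis these genes are switched on as germ cells enter meiosis, and loss of a structural component in mice causes meiotic arrest and male infertility.

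The sequence upstream of the members' start sites was examined because the members moved together. RefSeq (GRCm38.p6) gave a start site for 7 of 7 members. In the 250 bases before a start, the E-box CACGTG, which is bound by MAX and its partners and reads the same on both strands, was found for 4 of 7 members, *Sycp1*, *Sycp3*, *Syce2* and *Tex12*, compared with 6.86% of 27025 genes. The stretches that hold it are shown 5′ to 3′ with the E-box in capitals. They end where the annotated gene begins, except that for *Syce2* the E-box lies inside the annotated gene, before a second RefSeq start, and 30 bases are shown.
Sycp1, chr3:102936101-102936350, minus strand: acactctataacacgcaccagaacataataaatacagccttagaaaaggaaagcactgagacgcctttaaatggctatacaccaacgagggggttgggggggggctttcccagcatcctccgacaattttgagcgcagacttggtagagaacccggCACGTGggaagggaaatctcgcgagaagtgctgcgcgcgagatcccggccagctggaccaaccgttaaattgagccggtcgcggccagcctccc
Sycp3, chr10:88459337-88459568, plus strand: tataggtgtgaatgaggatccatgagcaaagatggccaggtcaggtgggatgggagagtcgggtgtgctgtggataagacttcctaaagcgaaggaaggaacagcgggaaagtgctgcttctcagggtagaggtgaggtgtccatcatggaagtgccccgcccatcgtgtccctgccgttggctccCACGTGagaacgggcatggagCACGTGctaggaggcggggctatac
Syce2, chr8:84872158-84872187, plus strand: cgtttcattcagCACGTGctcggggcgggg
Tex12, chr9:50561326-50561518, minus strand: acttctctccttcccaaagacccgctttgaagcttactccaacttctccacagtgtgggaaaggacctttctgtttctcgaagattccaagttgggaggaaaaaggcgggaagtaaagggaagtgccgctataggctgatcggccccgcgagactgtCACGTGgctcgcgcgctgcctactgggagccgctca
The E-box began 94 bases before the RefSeq start of *Sycp1*, 93 before that of *Tex12*, 88 before that of *Syce2*, and 64 and 43 before that of *Sycp3*, which held it at 2 positions. The distances for *Sycp1*, *Tex12* and *Syce2* are close, but they depend on the start used. The RefSeq start lies 0 bases from the start of the annotated gene for *Sycp1*, 57 for *Tex12* and 147 for *Syce2*. The window before the other RefSeq start of *Syce2* held no E-box. The E2F motif TTCCCGC, searched on both strands, was found for *Sycp3*, *Syce2* and *Tex12* (4.38% of all genes). The motif CNCCTCAG of STRA8, a transcription factor of meiotic entry, was found for *Syce2* (7.39% of all genes), the MYB motif AACNGTT for *Sycp1* (4.27%), and the TATA box TATAAA for *Syce3* (14.3%). Neither *Sycp2* nor *Syce1* held any of the 5 motifs in this window. The E-box and the E2F motif each contain a CpG pair (a C followed by a G). The windows with the E-box held 17 (*Sycp1*), 12 (*Sycp3*), 24 (*Syce2*) and 20 (*Tex12*) CpG pairs, against a median of 6 over all windows. The part of base composition in the shares above was not tested. These matches describe letters in the sequence and not bound sites.

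All 7 members fell in the KO-labelled testes, to between 20.6% and 31.3% of the control mean. By edgeR's quasi-likelihood test over all genes, with Benjamini-Hochberg adjustment, 7 of 7 members were lower, where 16.5% of all tested genes were lower and 16.2% higher. All KO-labelled libraries were below all control libraries for 7 of 7 members, as for 23.8% of all genes, whereas 21.7% of all genes had all KO-labelled libraries above. The median log2 fold change of the members was -1.78, against -0.02 over all genes and -0.76 over the genes that fell. A called fall of at least -1.5 on the log2 scale was found for 654 genes (3.22%), and 7 of 7 members were among them. In whole testes, fewer spermatocytes and less RNA per spermatocyte cannot be told apart.

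**Figure D1:**
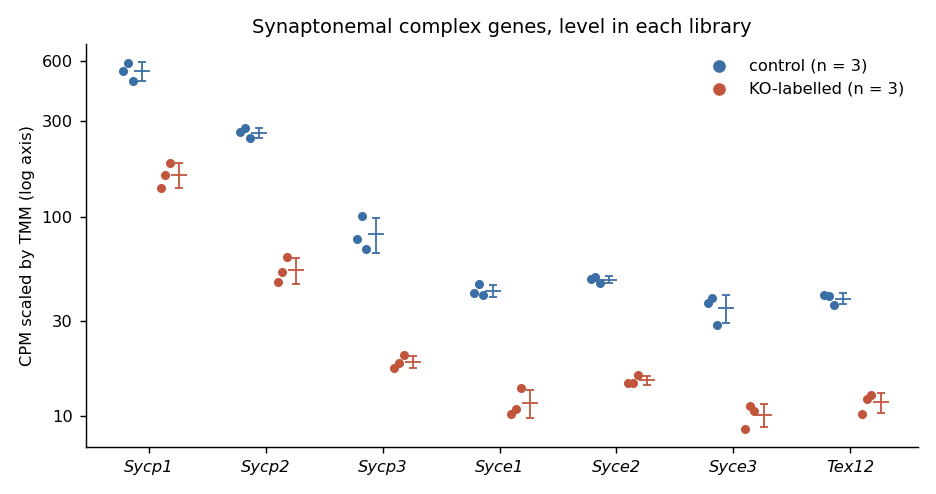
Level of each synaptonemal complex gene in each library, in CPM scaled by TMM on a log axis. Points are libraries (blue, control; red, KO-labelled), and the dash with its bar beside them gives the mean ± SD (n = 3). For each gene the 3 KO-labelled libraries lie below the 3 control libraries, with means of 162 against 535 CPM for *Sycp1* and 10.2 against 35.0 CPM for *Syce3*.

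*Sycp1* (ENSMUSG00000027855.13, GRCm38 chr3:102818499-102936100, minus strand) encodes the transverse filament protein. Its levels were 538, 590 and 476 CPM in control replicates 1 to 3 and 139, 162 and 186 CPM in KO-labelled replicates 1 to 3. The means were 535 ± 57.2 and 162 ± 23.2 CPM (SD, n = 3 each). The lowest control library was thus well above the highest KO-labelled one, and the gap between them was wider than the range within either group. The log2 fold change was -1.72 (SE 0.11, 95% interval -1.95 to -1.49, edgeR adjusted p = 6.3e-08).

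The lateral element genes had the lowest log2 fold changes. *Sycp2* (ENSMUSG00000060445.11, chr2:178345293-178407685, minus strand), whose product anchors the lateral element to the chromosome axis together with SYCP3, was at 264, 278 and 248 CPM in control replicates 1 to 3 and 47.0, 52.8 and 62.8 CPM in KO-labelled replicates 1 to 3. Its mean was 20.6% of the control mean, the lowest share of the 7 members, with a log2 fold change of -2.28 (SE 0.10, 95% interval -2.50 to -2.06, edgeR adjusted p = 4.9e-09). *Sycp3* (ENSMUSG00000020059.9, chr10:88459569-88473236, plus strand), the most widely used marker of meiotic chromosome axes, was at 77.2, 101 and 68.9 CPM in control replicates 1 to 3 and 17.5, 18.6 and 20.2 CPM in KO-labelled replicates 1 to 3. The control libraries of *Sycp3* varied more than those of the other members, because replicate 2 stood above the others, while its KO-labelled libraries were close together. Its log2 fold change was -2.13 (SE 0.13, 95% interval -2.41 to -1.86, edgeR adjusted p = 4.2e-08). *Chpt1* on the opposite strand shares 660 exon bases with *Sycp3*. Reads were counted by strand, and *Chpt1* differed by 0.14 (log2 fold change, edgeR adjusted p = 0.310).

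The 4 central element genes fell to between 27.4% and 31.3% of the control mean. *Syce1* (ENSMUSG00000025480.5, chr7:140777229-140787852, minus strand), a central element protein that binds SIX6OS1, was at 41.4, 45.9 and 40.5 CPM in control replicates 1 to 3 and 10.3, 10.9 and 13.9 CPM in KO-labelled replicates 1 to 3. *Syce2* (ENSMUSG00000003824.12, chr8:84872111-84888221, plus strand) and *Tex12* (ENSMUSG00000032065.6, chr9:50556819-50561325, minus strand) encode partners that assemble together into the fibres of the central element. *Syce2* was at 48.6, 50.1 and 46.6 CPM in control replicates 1 to 3 and 14.6, 14.7 and 16.1 CPM in KO-labelled replicates 1 to 3, the smallest relative spread of the 7 members in both groups. *Tex12* was at 40.5, 40.0 and 36.1 CPM in control replicates 1 to 3 and 10.3, 12.3 and 12.8 CPM in KO-labelled replicates 1 to 3. *Syce3* (ENSMUSG00000078938.9, chr15:89390174-89410503, minus strand), which links SYCP1 to the central element, was at 37.1, 39.3 and 28.6 CPM in control replicates 1 to 3 and 8.69, 11.3 and 10.6 CPM in KO-labelled replicates 1 to 3. No control library overlapped a KO-labelled one for any of the 4 genes. The log2 fold changes by edgeR were -1.87 for *Syce1* (SE 0.12, adjusted p = 1.0e-07), -1.68 for *Syce2* (SE 0.10, adjusted p = 2.7e-08), -1.78 for *Syce3* (SE 0.14, adjusted p = 5.4e-07) and -1.72 for *Tex12* (SE 0.11, adjusted p = 1.0e-07). Their 95% intervals together ran from -2.13 to -1.47, so that each interval overlapped the others.

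Levels of different genes were compared per kilobase of exon. In the control, *Sycp1* was the most abundant at 150 ± 16.1 CPM per kb, followed by *Sycp3* at 65.1 ± 13.1 and *Syce3* at 63.3 ± 10.2, whose libraries overlapped. *Sycp2* came next at 44.1 ± 2.57 CPM per kb, then *Tex12* at 38.3, *Syce1* at 29.2 and *Syce2* at 24.6, each apart from its neighbour in the order. In the KO-labelled libraries, *Sycp1* again led at 45.6 ± 6.51 CPM per kb. *Syce3* at 18.4 and *Sycp3* at 14.8 overlapped, and *Tex12* at 11.6 was apart from *Sycp3*. *Sycp2* at 9.08, *Syce1* at 8.01 and *Syce2* at 7.70 CPM per kb followed, and from *Tex12* on each gene overlapped the next. The libraries of *Sycp2* were thus all above those of *Tex12* in the control, but overlapped them, with a lower mean, in the KO-labelled group.

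Whether the members fell by different amounts was asked with the ratio of their counts within each library, which no scaling between libraries can change. Of 21 pairs, 10 had ratios that did not overlap between the groups, and 5 of these held *Sycp2*. With 3 libraries a group, the exact permutation test (two-sided) cannot give a p below 0.1, which these 10 pairs reached (adjusted p = 0.21 over the 21 pairs), so no pair passed the threshold. *Sycp2* was lower relative to *Syce2* by the widest margin, a log2 ratio of 1.83 ± 0.14 in the KO-labelled against 2.44 ± 0.03 in the control libraries (SD, n = 3 each). The ratio of *Sycp2* to *Sycp3* differed by -0.17 and overlapped. With a smallest p of 0.1 the test could separate no pair, so it does not decide whether these lateral element genes fell alike. *Sycp1* and *Tex12* kept closest, with log2 ratios of 3.78 ± 0.07 and 3.78 ± 0.09. Of the 10 pairs that hold neither *Sycp2* nor *Sycp3*, 1 did not overlap, *Sycp1* to *Syce1*, with a difference of 0.15. Per kilobase, *Sycp2* made up 10.7% ± 0.561 of the members' summed counts per kilobase in control libraries and 7.86% ± 0.323 in KO-labelled ones, and *Sycp1* 36.2% ± 0.130 and 39.5% ± 1.06 (SD, n = 3 each).

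**Figure D2:**
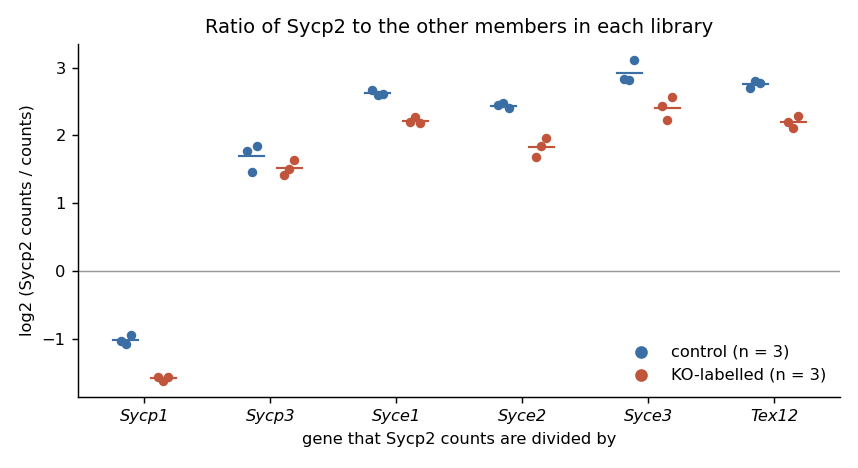
Log2 ratio of *Sycp2* counts to the counts of each other member within each library, not corrected for gene length. Points are libraries (blue, control; red, KO-labelled; n = 3 each) and short lines are group means. The groups are apart for 5 of 6 genes and overlap for *Sycp3*, the other lateral element gene. All 6 ratios share the *Sycp2* counts and are not independent.

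The members also varied together within each group. In the control, replicate 3 was the lowest for 7 of 7 members and replicate 2 the highest for 6 of 7. In the KO-labelled group, replicate 1 was the lowest for 7 of 7 and replicate 3 the highest for 6 of 7. The share of all genes with these orders was not counted, so the orders are not shown to be particular to the members. Summed over the members, the control libraries held 1047, 1145 and 944 CPM and the KO-labelled libraries 248, 283 and 322 CPM. The summed level of the 13 germ cell markers had the same order, at 1603, 1755 and 1542 CPM in control replicates 1 to 3 and 624, 723 and 830 CPM in KO-labelled replicates 1 to 3. The part of germ cell number in the members' spread was not tested.

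The germ cell markers thus moved with the members, and the members were compared with them inside each library. The members' summed counts were 0.639 ± 0.0232 times those of the germ cell markers in the control and 0.392 ± 0.00455 times in the KO-labelled libraries (SD, n = 3 each), a log2 difference of -0.71. *Dazl*, which fell itself, holds a large share of these marker counts, and without it the difference was -1.03. Against *Ddx4* alone, a germ cell RNA helicase, the ratio was 7.18 ± 0.214 and 4.77 ± 0.218, a difference of -0.59. Against 8 genes of meiotic entry it was 1.13 ± 0.0549 and 0.917 ± 0.00933 (-0.30), and against 6 chromosome axis genes 1.52 ± 0.0154 and 1.22 ± 0.0168 (-0.33). The comparisons with these 2 meiotic lists each rest on 1 gene. Without *Kit*, a receptor that also marks differentiating spermatogonia and had a log2 fold change of -0.14, the ratio to the meiotic entry genes was 1.30 ± 0.0547 in control and 1.44 ± 0.0854 in KO-labelled libraries, so that the direction turned (0.14). Without the cohesin subunit *Smc1b*, whose log2 fold change was -1.33, the ratio to the axis genes was 3.33 ± 0.223 and 3.32 ± 0.133, and the groups overlapped. Thus a lower level of the members relative to other meiotic genes was not shown. Leaving out any 1 of the germ cell markers, the members remained lower relative to the rest, with differences of -1.03 to -0.63 and no overlap between the groups.

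The scaling between libraries set the size of the fall but not its direction. Scaled by the summed markers of 6 somatic cell types, the members' log2 fold changes ran from -2.77 to -2.17, while the median of all genes moved by -0.50. Scaled by the germ cell markers, they ran from -1.11 to -0.50, while the median of all genes moved by 1.18. With the germ cell scaling 7 of 7 members were still lower (highest edgeR adjusted p = 0.00921, for *Syce2*), where 1.35% of all genes were lower and 74.4% higher. *Sycp2* was the lowest at -1.11, followed by *Sycp3* at -0.95, *Syce1* at -0.70, *Syce3* at -0.60, *Sycp1* at -0.55, *Tex12* at -0.55 and *Syce2* at -0.50.

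**Figure D3:**
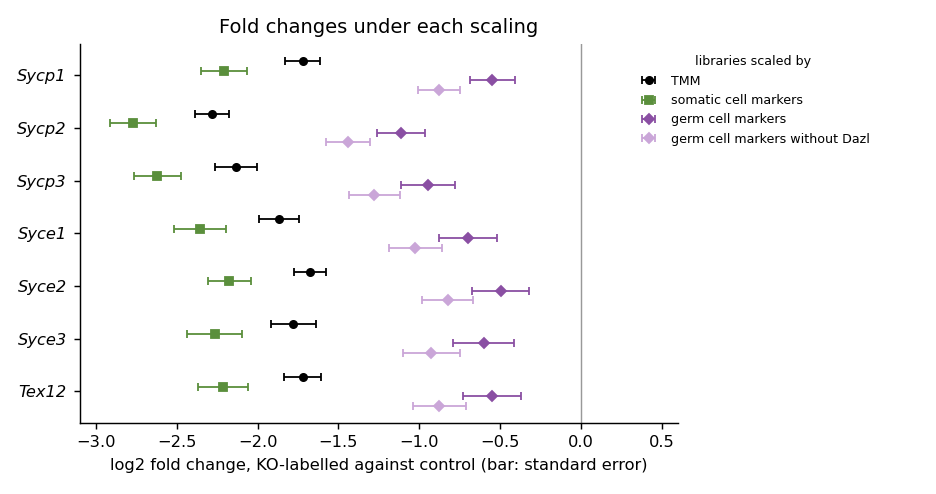
Log2 fold change of each member (KO-labelled against control; bars, standard error) with libraries scaled by TMM (black), by somatic cell markers (green), by germ cell markers (purple) and by germ cell markers without *Dazl* (light purple). All values lie below 0; those for *Sycp2* run from -2.77 with somatic to -1.11 with germ cell scaling.

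The other genes of the pathway were taken from lists that share no gene with the members. Of 12 genes whose products act on or with the complex, 11 were tested and 10 were lower, with a median log2 fold change of -1.75, among them *Tex11* (-1.84) and *Shoc1* (-1.95), which act in crossover formation. *Skp1a*, at 0.08, was not called. All 6 axis genes were lower (median -1.89), including the cohesin subunit *Stag3* (-1.86) and *Hormad1* (-1.92). Of the genes for double-strand break formation, 9 of 9 were lower (median -1.66), including *Prdm9* (-2.29), which places the breaks, and *Zcwpw1* (-1.59), which reads its mark. Of those for strand exchange, 10 of 11 were lower (median -1.49), including the single-strand binding *Meiob* (-2.60), and of those for telomere attachment 7 of 8 (median -1.94), including *Terb1* (-2.38) and *Majin* (-2.42). The medians of these lists lay between -1.94 and -1.49, on both sides of the members' -1.78. With the germ cell scaling, lower calls in these lists were 6 of 11, 4 of 6, 5 of 9, 3 of 11 and 5 of 8, in the order given, beside 7 of 7 members and 1.35% of all genes. Without *Dazl* among the germ cell markers they were 7 of 11, 6 of 6, 8 of 9, 8 of 11 and 5 of 8, again beside 7 of 7 members, and 2.48% of all genes. Some list genes were at lower levels than any member, such as *Mei4* at 6.03 and *Terb2* at 4.25 CPM in the control. A fall is harder to call at a low level. These counts thus do not show that the members fell more than the lists. Upstream of them, 6 of 8 meiotic entry genes were lower (median -1.58), among them *Gm4969* (-3.15) and *Meioc* (-2.12). Of 9 tested genes that rise at pachytene, when the complex is complete, 7 were lower (median -0.67), including *Ybx2* (-1.97) and *Clgn* (-1.44). *Piwil1* (-0.11) and *Ldhc* (-0.39, at 2.80 CPM in the control) were not called. With the germ cell scaling 1 of these pachytene genes was lower. The study places zygotene at P12 and pachytene at P14.

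Markers of cell types moved in both directions. Of the 13 germ cell markers, 10 were lower and 1 higher (median -0.83), with *Dazl* at -1.66, *Ddx4* at -1.30 and *Nanos3* at 0.81. Of 11 markers of undifferentiated spermatogonia, 6 were higher and 0 lower (median 0.49), including *Etv5* (0.72) and *Eomes* (2.09), and their summed level was 229 to 238 CPM in the control and 274 to 334 CPM in the KO-labelled libraries. With the somatic scaling 1 of these 11 was higher, and 2 of the 10 Sertoli cell markers described next. Of 10 Sertoli cell markers, 9 were higher (median 0.60), including *Amh* (1.56) and *Inhbb* (0.91), and their summed level was 6217 to 6725 CPM in the control and 10106 to 10745 CPM in KO-labelled libraries. Higher calls were also made for 4 of 6 Leydig (370 to 412 against 525 to 558 CPM), 3 of 4 macrophage (52.2 to 61.6 against 74.2 to 106), 2 of 4 endothelial (280 to 312 against 369 to 417) and 2 of 4 stromal markers (3104 to 4047 against 3646 to 5716, which overlap). For peritubular myoid cells 3 of 4 were lower (1192 to 1216 against 1003 to 1035 CPM). With the somatic scaling higher calls were left for 1 Leydig marker and for 0 macrophage, endothelial and stromal markers. The somatic factors are made from these same somatic markers, Sertoli cell markers included, so this loss of higher calls is built in. With the germ cell scaling 0 peritubular myoid markers were lower. Spermatid markers were near 0, with 2.75 to 3.40 CPM in the control and 1.65 to 2.03 CPM in the KO-labelled libraries over 7 genes, 1 of which had no count and 3 of which were tested, with no call. The part of these cell types in the members' fall was not tested.

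**Figure D4:**
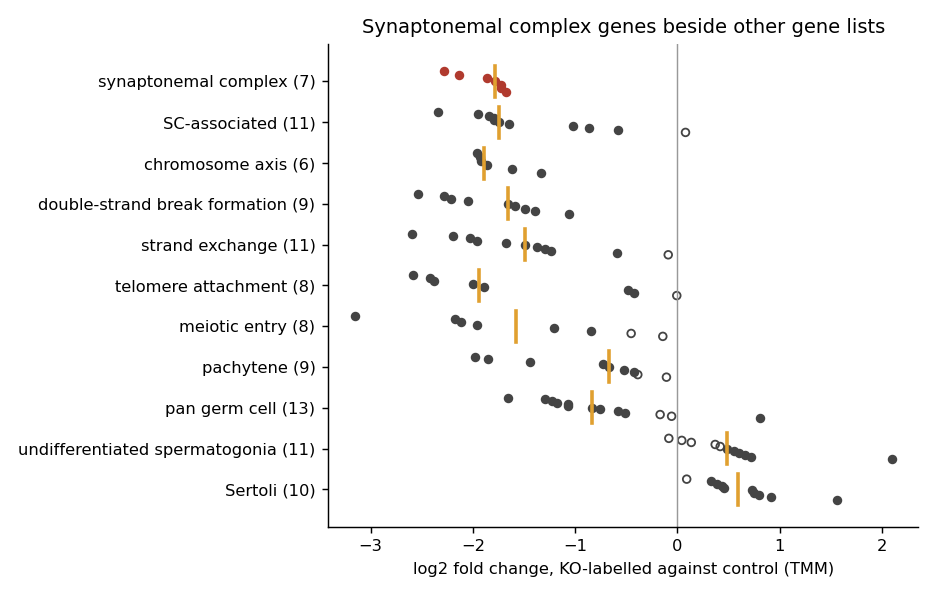
Log2 fold change (TMM scaling, KO-labelled against control) of each tested gene by list, with the number tested in brackets. Filled points passed the edgeR test, open points did not, and the bar is the list's median; the 7 synaptonemal complex genes (red) run from -2.28 to -1.68 around a median of -1.78.

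Among the genes whose profile over the 6 libraries was most like the mean standardised profile of the members were *Zcwpw1* (Pearson r = 0.9999), *Mtbp* (0.9997), *Iqcb1* (0.999) and *Plcl2* (0.999), out of 11838 genes compared. Their log2 fold changes were -1.59, -1.08, -1.27 and -0.24, so a like profile did not mean a like fall. In all, 266 genes had an r of at least 0.99, and any gene that differs between the groups by more than its spread gets a high r here. Between any pair of members r was 0.984 to 0.999. These values share the same 6 libraries and are given as a description.

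The nearest tested gene on each side of each member was also examined. None of the 14 neighbours passed the edgeR or the DESeq2 test, where 32.7% of all genes were called by edgeR. At an unadjusted edgeR p under 0.05 there were 2 neighbours, and limma-voom called 1. Of the neighbours, 10 were under 5 CPM in the control, where small differences could not be detected. Among the well-expressed ones, *Sdhd* beside *Tex12* differed by -0.01, *Gnptab* beside *Sycp3* by -0.07, *Farsa* beside *Syce2* by -0.25 and *Tspan2* beside *Sycp1* by -0.30 (log2 fold change). The members lie on 7 different chromosomes. *Gcdh*, whose span crosses that of *Syce2* on the opposite strand without sharing exon bases, was higher by 0.74 (edgeR adjusted p = 0.00181).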

How the data were processed

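Gene counts, as deposited by the authors, were made with featureCounts 1.6.4 by strand on GRCm38 with GENCODE M18 annotation, from total RNA libraries depleted of ribosomal RNA. Reads had been trimmed with cutadapt and aligned with HISAT2. Counts of 6 libraries (3 control, 3 KO-labelled) were fitted with edgeR 4.0.16 (filterByExpr, TMM, quasi-likelihood test, Benjamini-Hochberg, threshold 0.05) in R 4.3.3, on all 20327 genes that passed the filter. DESeq2 1.42.0, limma-voom (limma 3.58.1), other scalings and filters, a replicate block and leaving out each library were alternatives. The fit was tested on simulated data. CPM values are scaled by TMM. Promoter sequences are from RefSeq. The members and lists were chosen with earlier results of these data known. Genes named beside the members are the 2 called genes of each list, up and down, that had the lowest adjusted p (not all are repeated for somatic lists), the 5 most alike profiles among genes of at least 5 CPM, and neighbours; some genes this rule picks are not reported here. *Skp1a*, *Kit*, *Smc1b*, *Gcdh*, *Chpt1*, *Mei4*, *Terb2*, *Piwil1* and *Ldhc* were named after their values were seen. Replicate numbers did not pair the samples. Replicates differed by more than sampling noise.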

Additional observations from a re-analysis of the deposited data

How the results depend on the processing

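All 7 members were lower and 0 higher under every alternative run. Leaving out 1 library at a time, their log2 fold changes ran from -1.82 to -1.60 (*Sycp1*), -2.39 to -2.18 (*Sycp2*), -2.25 to -1.92 (*Sycp3*), -2.00 to -1.77 (*Syce1*), -1.71 to -1.61 (*Syce2*), -1.90 to -1.65 (*Syce3*) and -1.77 to -1.62 (*Tex12*). Counts of other genes did move. With somatic marker scaling 9680 of all genes were lower and 241 higher, against 3347 and 3294 with TMM, and higher calls fell to 1 undifferentiated spermatogonia, 2 Sertoli, 1 Leydig, 0 macrophage, 0 endothelial and 0 stromal markers, while 2 spermatid markers were lower. With germ cell marker scaling 275 genes were lower and 15130 higher, lower calls were 6 for genes associated with the complex, 5 for break formation, 3 for strand exchange, 1 for pachytene, 1 for pan germ cell and 0 for peritubular myoid genes, and higher calls were 10 for undifferentiated spermatogonia, 4 for endothelial and 4 for stromal markers. Germ cell scaling without *Dazl*, chosen after seeing the data, gave 505 lower and 13259 higher genes, 2 pachytene, 2 pan germ cell and 0 peritubular myoid genes lower, and 10 undifferentiated, 4 endothelial and 4 stromal markers higher; the members ran from -1.44 to -0.83. These scalings move every gene of a library by the same factor. The somatic factors are made from the somatic markers and the germ cell factors from the pan germ cell genes. The loss of higher calls among the former and of lower calls among the latter is therefore built in. A minimum of 10 counts in every library gave 1 spermatid marker lower, and DESeq2 1 stromal marker higher. Without 1 library, 0 to 1 spermatid and 1 to 3 peritubular myoid markers were lower (1 without KO-labelled replicate 2), and 2 to 5 Leydig (2 without control replicate 2), 1 to 3 macrophage (1 without control replicate 2 or KO-labelled replicate 1), 1 to 2 endothelial and 1 to 2 stromal markers rose. Without a low-count filter the median of all genes moved by -0.30. The replicate numbers did not pair the samples (correlations of deviations -0.0014, -0.0126 and 0.0139), and with the replicate block 7 of 7 members were lower, with a median of -1.77. Leaving out each gene of a reference list in turn, chosen after seeing the data, turned the members' ratio to the meiotic entry genes without *Kit* and ended the difference from the axis genes without *Smc1b*.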
